A study of Mus musculus with 6 samples.

Results

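The AP-1 genes described here were Fos, Fosb, Fosl1, Fosl2, Jun, Junb, Jund, Maff, Mafk and Jdp2, 10 of the 55335 genes counted in B16 mouse melanoma cells. They were chosen by name, through the symbol of each Ensembl identifier in GENCODE release M21, but with earlier results of these data known. RNA was sequenced from the B16-BL6 line, with 3 scrambled control and 3 IFNγR1KO cultures. Both carried a lentiviral Cas9 and guide vector and had been selected with puromycin. The guide in scrambled control cells was directed at GFP and the guide in IFNγR1KO cells at Ifngr1, the ligand-binding chain of the IFN-γ receptor. Cells were plated overnight in triplicate before lysis, and the method of the sequencing experiment names no cytokine. IFNγR1KO lines were raised from single cells, and which clone was sequenced is not given in the sources used here, so p-values measured only the spread between cultures of what may be 1 line a group. The comparison asked whether AP-1 RNA differed between tumor cells with and without an intact IFN-γ receptor gene.

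AP-1 is a dimer of basic leucine zipper (bZIP) proteins that binds short palindromic DNA sites. Fos proteins cannot pair with themselves and need a Jun partner, whereas Jun proteins pair with themselves, with Fos proteins and with ATF proteins. Jdp2 is a repressor that pairs with Jun proteins, and the small Maf proteins Maff and Mafk lack an activation domain and pair mainly with NRF2-type and BACH factors. In melanocytes and melanoma, RAS-RAF-MAPK signaling controls the synthesis and phosphorylation of Fos and Jun proteins.

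Of the 10 genes, 8 had enough counts for a test. Jund and Jdp2 were higher in IFNγR1KO cells, Maff was lower, and Jun, Junb, Fos, Fosl2 and Mafk did not pass the test. The 3 changes were of similar size, with absolute log2 fold changes from 0.64 to 0.76, and none reached the limit of 1 that the study used for a differentially expressed gene (DEG). Fosb and Fosl1 were near the lower limit of detection in both groups.

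Start-site windows of the 3 changed genes were read from RefSeq (GRCm38.p6, the build of the counts), together with that of Jun, whose own control elements are well known. Each window ran from 250 bases before to 50 bases after an annotated start. They are shown because Jdp2, Maff and Jun each had a window with a sequence of the ATF, CREB and Jun class, which many of the bZIP proteins below can bind. Jdp2 and Maff had 3 windows each. The Jdp2 windows not shown held only a GC box, and the Maff window not shown held no match. Each window is written 5′ to 3′ on the strand of its gene, with every matched sequence in capitals.
Jdp2, chr12:85599166-85599465, plus strand: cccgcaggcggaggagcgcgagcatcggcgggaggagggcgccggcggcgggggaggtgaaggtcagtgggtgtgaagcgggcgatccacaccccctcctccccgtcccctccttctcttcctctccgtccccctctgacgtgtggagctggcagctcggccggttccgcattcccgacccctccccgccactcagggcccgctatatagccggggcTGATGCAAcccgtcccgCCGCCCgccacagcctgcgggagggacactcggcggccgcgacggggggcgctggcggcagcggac
Maff, chr15:79347270-79347569, plus strand: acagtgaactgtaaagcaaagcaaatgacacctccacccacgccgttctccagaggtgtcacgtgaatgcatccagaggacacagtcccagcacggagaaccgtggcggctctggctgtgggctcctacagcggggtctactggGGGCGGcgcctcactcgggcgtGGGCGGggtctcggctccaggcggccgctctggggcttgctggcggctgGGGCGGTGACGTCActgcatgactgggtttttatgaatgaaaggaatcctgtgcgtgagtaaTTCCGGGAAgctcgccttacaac
Maff, chr15:79348152-79348451, plus strand: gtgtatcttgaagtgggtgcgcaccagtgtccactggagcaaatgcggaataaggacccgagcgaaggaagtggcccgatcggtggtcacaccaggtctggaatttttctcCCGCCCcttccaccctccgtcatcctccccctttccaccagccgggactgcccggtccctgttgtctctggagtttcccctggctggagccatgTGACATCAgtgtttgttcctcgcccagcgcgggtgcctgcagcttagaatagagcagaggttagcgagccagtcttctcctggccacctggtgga
Jun, chr4:95052173-95052472, minus strand: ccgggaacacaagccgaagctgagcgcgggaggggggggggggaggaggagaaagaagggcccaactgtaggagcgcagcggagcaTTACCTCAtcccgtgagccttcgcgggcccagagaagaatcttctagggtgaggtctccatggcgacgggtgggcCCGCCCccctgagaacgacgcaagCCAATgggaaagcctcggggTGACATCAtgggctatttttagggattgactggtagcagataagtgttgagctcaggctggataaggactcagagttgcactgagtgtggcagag

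In the Jun window the capitals mark, from the left, TTACCTCA (the distal jun2 site), a GC box on the opposite strand, a CCAAT box and TGACATCA (the proximal jun1 site), which began 45 bases before the start. The same TGACATCA, also 45 bases before the start, stood in the Maff window that opens with gtgtat. The other Maff window shown held 3 GC boxes (GGGCGG), the last directly followed by the cyclic AMP response element (CRE) TGACGTCA. It also held the pattern TTCNNNGAA of a STAT-binding site (GAS) just downstream of the start. The Jdp2 window shown held TGATGCAA, a composite C/EBP and ATF element (CARE) that ATF4 binds, 33 bases before the start. It also held a GC box on the opposite strand. Both strands were searched, and no matches overlapped in these windows. Among all 32851 windows of the table, TGATGCAA was in 0.895%, TTACCTCA in 0.889%, TGACGTCA in 1.79%, TGACATCA in 3.62%, TTCNNNGAA in 8.30%, GGGCGG in 35.7% and CCAAT in 37.4%. In all, 9 of the 10 genes matched the table, with 13 windows, and none of these held the consensus AP-1 site TGACTCA, found in 5.20% of all windows, or a CArG box, found in 1.63%. The Jund window of the table lay around a start at position -1210 relative to that of the GENCODE gene, held no match and is not shown. Only the named sequences within the windows were searched, so sites further from a start or with other letters would have been missed. These matches describe letters and not binding.

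Libraries held 9402640 to 10579788 counts on genes in scrambled control and 6698956 to 7409479 in IFNγR1KO, lower in every IFNγR1KO library. Levels are given as CPM (counts scaled to the library total) after TMM scaling, in which 1 count was worth 0.0966 to 0.109 CPM in scrambled control and 0.135 to 0.142 CPM in IFNγR1KO. Ifngr1, on chromosome 10 from 19591949 to 19610229, had 154, 144 and 172 counts in scrambled control and 80, 85 and 82 in IFNγR1KO. Its groups did not overlap, but its log2 fold change of -0.47 (SE 0.16) had an adjusted p of 0.0729 and was not called. All 12 melanocyte markers passed the filter on low counts and summed to 33337 to 36261 CPM in scrambled control and 29195 to 34052 CPM in IFNγR1KO, with 1 of the 12 called lower. Leukocyte markers summed to 6.09 to 8.36 CPM and 3.80 to 6.68 CPM, with Cd3e and Itgam at 0 in every library. Most of this was Lyz2, the 1 leukocyte marker tested, with 65, 57 and 51 counts in scrambled control and 36, 26 and 21 in IFNγR1KO. Its log2 fold change was -0.60 (edgeR adjusted p = 0.154). Endothelial markers summed to 0.0966 to 0.217 CPM in scrambled control and were at 0 in every IFNγR1KO library. Fibroblast markers summed to 18.7 to 23.7 CPM and 26.9 to 35.6 CPM, with Col1a1 the 1 called gene of the 3 that were tested. The part of fibroblast markers in the results below was not tested. After counts of all libraries were thinned to the lowest total, the log2 fold changes of the 3 called AP-1 genes were 0.67 for Jund, 0.61 for Jdp2 and -0.84 for Maff (edgeR adjusted p = 0.0152, 0.0303 and 0.0222).

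The test was edgeR's quasi-likelihood test over all 13642 genes that passed the filter, and a gene was called at an adjusted p under 0.05. It called 15.3% of all tested genes, 7.73% higher and 7.62% lower in IFNγR1KO, against 3 of the 8 tested AP-1 genes (2 higher, 1 lower). CPM ranges of the groups did not overlap for 32.6% of tested genes and for 3 of the 8 AP-1 genes, the same 3 that were called. The DEG limits were met by 5.2% of tested genes and by 0 of the 8, of which 4 had an unadjusted p under 0.05, and DESeq2 also gave 0. The median log2 fold change was -0.03 over the 8 genes and -0.001 over all tested genes.

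Jund encodes the Jun protein that is made most steadily in resting cells and whose pairing with Fos proteins activates less strongly than that of Jun. Jund (ENSMUSG00000071076.6), a gene with a single exon on the plus strand of chromosome 8 from 70698949 to 70700616, measured 36.3, 46.6 and 38.8 CPM in scrambled control and 56.8, 62.9 and 74.8 CPM in IFNγR1KO. Every IFNγR1KO culture was above every scrambled control culture. The mean went from 40.6 ± 5.36 to 64.8 ± 9.14 CPM (SD, n = 3), 1.60-fold, with a log2 fold change of 0.68 (SE 0.15, 95% interval 0.34 to 1.01) and an adjusted p of 0.0111 by edgeR. An exact two-sided permutation test of this gene alone gave p = 0.1, the smallest that 3 against 3 can give. The call held without each of the 6 libraries, with adjusted p from 0.0147 to 0.0450. As these are bulk libraries, a change in all cells and a change in part of them cannot be told apart, for this and every other gene.

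An annotated antisense transcript, Gm11175, lies wholly under the Jund exon and covers 52.6% of it. The level counted for Gm11175 was also higher in IFNγR1KO, with 28.3, 38.7 and 40.5 CPM in scrambled control and 49.7, 46.9 and 58.8 CPM in IFNγR1KO. Its log2 fold change was 0.53 (SE 0.16, edgeR adjusted p = 0.0465). Whether the counting used strand is not given in the sources used here. Gm11175 had 261 to 419 counts a library, although all of its exonic bases lie under Jund. How many of these counts came from Jund RNA was not tested, so reads of the pair cannot be told apart. Counted together, an alternative chosen after their values were seen, Jund and Gm11175 had a log2 fold change of 0.61 (SE 0.15) and an edgeR adjusted p of 0.0176.

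Jun, the founding member and the strongest activator among the Jun proteins, moved in the same direction with a smaller estimate that did not pass. Jun (ENSMUSG00000052684.4, chromosome 4 from 95049034 to 95052222, minus strand) measured 30.7, 40.7 and 36.8 CPM in scrambled control and 38.9, 49.2 and 52.2 CPM in IFNγR1KO. The lowest IFNγR1KO culture lay below the highest scrambled control culture. Its log2 fold change was 0.37 (SE 0.16, 95% interval 0.03 to 0.72), with an unadjusted p of 0.0368 and an adjusted p of 0.142 by edgeR. The antisense gene Junos, under 7.28% of the Jun exon, had a log2 fold change of 0.21 and an adjusted p of 0.599.

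Junb, which pairs with the same partners and in many settings restrains Jun, had the narrowest 95% interval of the 8 tested genes. Junb (ENSMUSG00000052837.6, chromosome 8 from 84974484 to 84978718, minus strand) measured 21.7, 22.5 and 22.1 CPM in scrambled control and 22.4, 20.2 and 22.4 CPM in IFNγR1KO. The groups overlapped, and the log2 fold change of -0.03 had a 95% interval from -0.34 to 0.28 (edgeR adjusted p = 0.920). Differences between the fold changes of Jund, Jun and Junb were not tested.

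**Figure D1:**
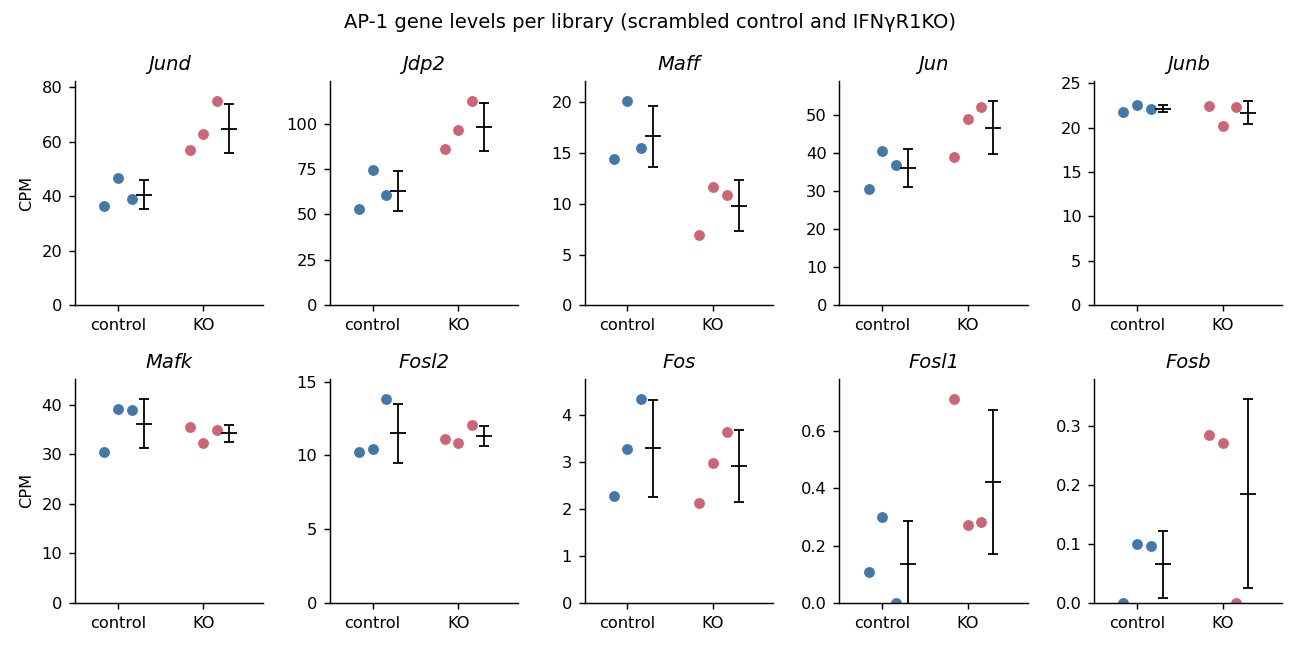
Each panel plots 1 AP-1 gene, with its level in CPM on a linear axis from 0, for the 3 scrambled control libraries (blue) and the 3 IFNγR1KO libraries (red). Black marks are the mean and 1 SD. The groups separate for Jund, Jdp2 and Maff, and the axes of Fosl1 and Fosb end below 1 CPM.

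Jdp2 RNA rose by about as much as that of Jund. The Jdp2 protein occupies AP-1 and CRE sites as a homodimer or with Jun proteins and recruits histone deacetylases. Jdp2 (ENSMUSG00000034271.16, chromosome 12 from 85599027 to 85639878, plus strand) measured 52.8, 74.6 and 60.9 CPM in scrambled control and 85.8, 96.3 and 112 CPM in IFNγR1KO. All IFNγR1KO cultures were above all scrambled control cultures. The mean went from 62.8 ± 11.1 to 98.1 ± 13.3 CPM (SD, n = 3), 1.56-fold, with a log2 fold change of 0.64 (SE 0.16, 95% interval 0.30 to 0.99, edgeR adjusted p = 0.0180). The call was lost without scrambled control 1 (log2 fold change 0.53, edgeR adjusted p = 0.0689) and without IFNγR1KO 11 (0.67, adjusted p = 0.0618).

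Jdp2 shares its start region with Gm47863, a noncoding transcript read from the opposite strand whose 5′ end is annotated at base 85599191, inside the Jdp2 window printed above. Gm47863 measured 4.13, 2.98 and 2.42 CPM in scrambled control and 8.38, 5.69 and 7.45 CPM in IFNγR1KO. The groups did not overlap, and the log2 fold change was 1.18 (SE 0.27, edgeR adjusted p = 0.0108). Its exon lies over 7.68% of the exonic bases of Jdp2.

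The Fos genes, whose products supply the inducible subunits of AP-1, were low and none was called. Fos (ENSMUSG00000021250.13, chromosome 12 from 85473890 to 85477273, plus strand), the classic serum-induced proto-oncogene, had 21, 33 and 45 counts in scrambled control and 15, 22 and 26 in IFNγR1KO. These were 3.30 ± 1.03 and 2.92 ± 0.764 CPM (SD, n = 3), and the ranges overlapped. The log2 fold change of -0.18 had a 95% interval from -0.88 to 0.51, the widest of the 8, which spans ratios from 0.544 to 1.43 (edgeR adjusted p = 0.761).

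Fosl2, which encodes FRA2, was the most abundant Fos gene by CPM but has a long exonic sequence. Fosl2 (ENSMUSG00000029135.10, chromosome 5 from 32135801 to 32157842, plus strand) measured 10.2, 10.4 and 13.8 CPM in scrambled control and 11.1, 10.8 and 12.1 CPM in IFNγR1KO. Its log2 fold change was -0.02 (SE 0.19, 95% interval -0.43 to 0.38, edgeR adjusted p = 0.959), with overlapping groups.

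Fosl1, which encodes FRA1, a factor often abundant in dedifferentiated melanoma cells, had 1, 3 and 0 counts in scrambled control and 5, 2 and 2 in IFNγR1KO. Exons of Ccdc85b on the opposite strand cover 57.2% of the Fosl1 exonic bases, so even these counts are uncertain. Fosb had 0, 1 and 1 counts in scrambled control and 2, 2 and 0 in IFNγR1KO. Both genes were left out by the low-count filter, and no fold change is given for them.

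Of the small Maf genes, Maff was lower in IFNγR1KO and Mafk was not called. Maff (ENSMUSG00000042622.14, chromosome 15 from 79346621 to 79359076, plus strand) measured 14.4, 20.1 and 15.5 CPM in scrambled control and 6.96, 11.7 and 10.8 CPM in IFNγR1KO. Each IFNγR1KO culture was below each scrambled control culture. The mean went from 16.7 ± 3.02 to 9.81 ± 2.50 CPM (SD, n = 3), a ratio of 0.589, with a log2 fold change of -0.76 (SE 0.22, 95% interval -1.24 to -0.29, edgeR adjusted p = 0.0332). This call was lost without scrambled control 2 (-0.61, adjusted p = 0.145), without IFNγR1KO 10 (-0.57, adjusted p = 0.142) and without IFNγR1KO 11 (-0.89, adjusted p = 0.0591).

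Mafk (ENSMUSG00000018143.10, chromosome 5 from 139791513 to 139802653, plus strand) measured 30.5, 39.2 and 38.8 CPM in scrambled control and 35.5, 32.2 and 34.9 CPM in IFNγR1KO. The groups overlapped, and the log2 fold change was -0.08 (SE 0.15, 95% interval -0.40 to 0.24, edgeR adjusted p = 0.766). Mafg, the remaining small Maf gene and not one of the 10, had a log2 fold change of 0.12 (SE 0.14, adjusted p = 0.639). A share of each gene in the summed RPKM of the 3 small Maf genes was added after these values were seen. Maff made up 17.0% ± 3.01 in scrambled control and 10.3% ± 2.29 in IFNγR1KO (SD, n = 3). Its exact permutation p was 0.1, and 0.15 after Benjamini-Hochberg adjustment over the 3 shares. Mafg went from 58.6% ± 4.90 to 65.6% ± 1.46 and Mafk from 24.5% ± 2.31 to 24.1% ± 2.50. As the share restates the change of Maff, it gives no further support.

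**Figure D2:**
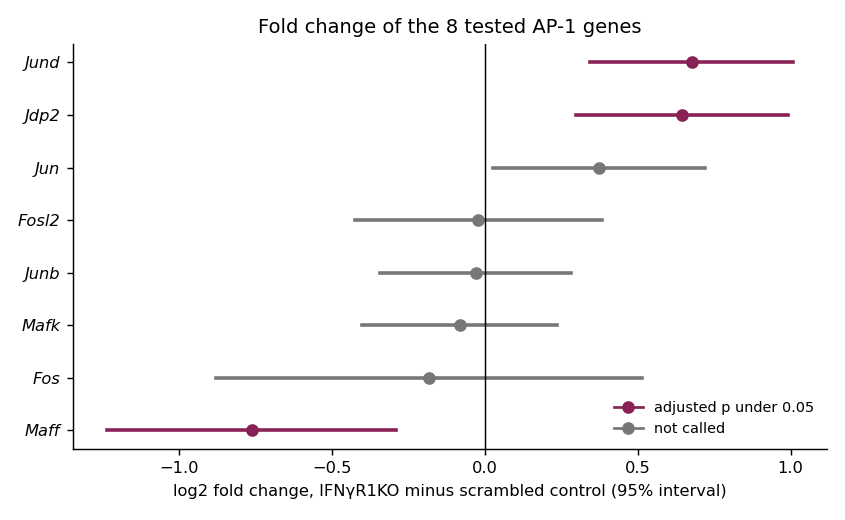
The log2 fold change of each of the 8 tested AP-1 genes (IFNγR1KO minus scrambled control) is plotted as a point with its 95% interval as a line, in purple where the adjusted p was under 0.05. Jund and Jdp2 lie to the right of 0 at 0.68 and 0.64, Maff to the left at -0.76, and the interval of Fos is the widest.

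Levels between genes were compared per kilobase of exonic sequence (RPKM from the TMM-scaled counts). The order was the same in both groups. Jdp2 was at the top with 29.2 ± 5.14 RPKM in scrambled control and 45.7 ± 6.18 in IFNγR1KO (SD, n = 3). Jund followed with 24.3 ± 3.21 and 38.9 ± 5.48 RPKM, overlapping the range of Jdp2 in each group.

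Jun was next with 11.3 ± 1.58 and 14.7 ± 2.18 RPKM, clear of Jund in both groups and of Junb only in IFNγR1KO. Junb had 9.61 ± 0.168 and 9.41 ± 0.556 RPKM, and Mafk, whose range overlapped that of Junb in both groups, had 9.28 ± 1.26 and 8.77 ± 0.444 RPKM. Maff stood clear of its neighbours at 6.42 ± 1.16 and 3.78 ± 0.965 RPKM. Fos, at 1.40 ± 0.440 and 1.24 ± 0.325 RPKM, overlapped Fosl2, at 1.19 ± 0.209 and 1.17 ± 0.0686 RPKM. Fosl1 averaged 0.0667 and 0.207 RPKM and Fosb 0.0105 and 0.0296 RPKM. In these cells the RNA of the repressor Jdp2 and of Jund stood above that of every Fos gene.

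The Fos and Jun pool was dominated by Jun genes. Jun, Junb and Jund together held 94.4% ± 1.15 of the summed RPKM of the 7 Fos and Jun genes in scrambled control and 96.0% ± 0.117 in IFNγR1KO (SD, n = 3). The summed level itself was 42.9, 53.1 and 47.7 RPKM in scrambled control and 58.5, 64.4 and 73.8 RPKM in IFNγR1KO, without overlap (exact permutation p = 0.1).

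Jund was the largest part and took 50.7%, 52.6% and 48.8% of the pool in scrambled control and 58.3%, 58.5% and 60.7% in IFNγR1KO. The share of Junb was 22.0%, 18.4% and 20.1% in scrambled control and 16.7%, 13.6% and 13.2% in IFNγR1KO. Jun kept close to its share, with 23.6% ± 0.952 and 22.3% ± 1.53 and overlapping libraries. Fos went from 2.92% ± 0.845 to 1.87% ± 0.289 and Fosl2 from 2.49% ± 0.480 to 1.80% ± 0.142. Since shares sum to 100%, a gain of Jund lowers the others without any change of their own. The groups did not overlap for the shares of Jund, Junb, Fos, Fosl2 and the summed Jun genes, each with an exact permutation p of 0.1, the smallest possible, and of 0.16 after Benjamini-Hochberg adjustment over the 8 shares tested.

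**Figure D3:**
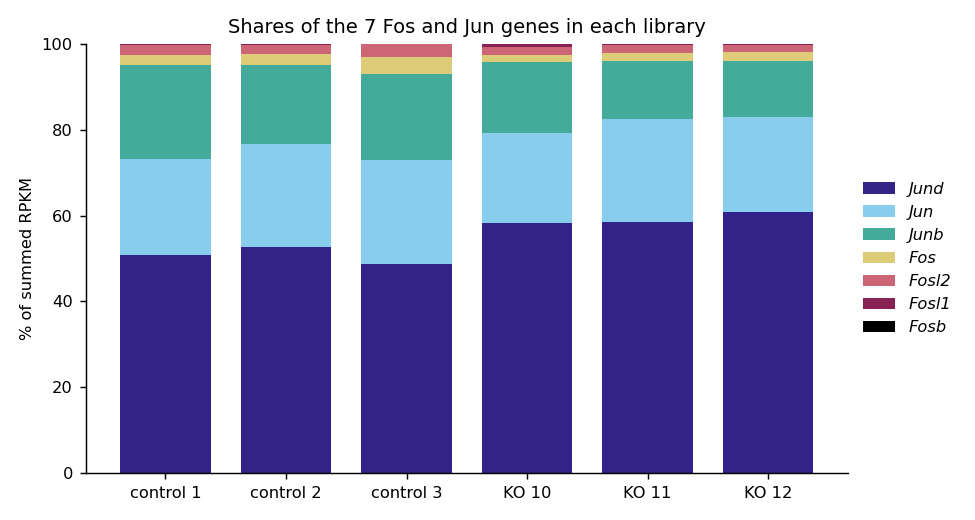
Stacked bars show the share of each of the 7 Fos and Jun genes in their summed RPKM, in percent, for each of the 6 libraries. The dark blue Jund part covers 48.8% to 52.6% of the scrambled control bars and 58.3% to 60.7% of the IFNγR1KO bars, and the parts of Fosl1 and Fosb are barely visible.

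Genes around AP-1 were read from 6 lists. Over all tested genes, 15.3% were called. Of the tested genes of a list, it was 38.5% for bZIP partners, 29.2% for immediate-early genes and 35.7% for AP-1 target genes. It was 54.5% for the NRF2 and small Maf list and 6.25% for regulators of Fos and Jun. Lists were chosen with earlier results of these data known, and none was tested as a set. Among 18 bZIP partners, the proteins that pair or compete with Fos, Jun and Maf, 13 were tested, 3 were called higher and 2 lower, with a median log2 fold change of 0.12. Atf3, a stress-induced repressor that pairs with Jun proteins, went from 6.08, 6.67 and 4.16 CPM to 28.7, 31.3 and 23.5 CPM, the largest change of the list (log2 fold change 2.30, SE 0.21, edgeR adjusted p = 2.32e-05). Atf4, the main effector of the integrated stress response and a factor that binds CARE sequences, went from 525 ± 76.3 to 1151 ± 92.5 CPM (SD, n = 3; log2 fold change 1.13, edgeR adjusted p = 0.000748). Nfe2l1, a partner of small Maf proteins that controls proteasome genes, had a log2 fold change of 1.23 (adjusted p = 0.000577).

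Batf and Batf3, whose proteins pair with Jun proteins and lack an activation domain of their own, were both lower. Batf measured 16.7, 15.02 and 11.2 CPM in scrambled control and 6.82, 5.69 and 4.78 CPM in IFNγR1KO (log2 fold change -1.31, SE 0.22, edgeR adjusted p = 0.00203). Batf3 went from 3.70 ± 0.312 to 1.48 ± 0.123 CPM (SD, n = 3), also with a log2 fold change of -1.31 (SE 0.29, edgeR adjusted p = 0.00964). Of the other small Maf partners, Nfe2l2, which encodes NRF2, and Bach1 were tested and not called, with log2 fold changes of 0.09 and -0.07, and Nfe2, Nfe2l3 and Bach2 were too low to test.

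Of 31 kinases of the MAPK cascades, which phosphorylate Fos and Jun proteins or lie upstream of them, 30 were tested, 0 were called higher and 3 lower, with a median of -0.16, and 5 were called without IFNγR1KO 12. The 3 calls were 10% of the list, against 15.3% of all tested genes. Map2k3 (162 ± 8.31 to 97.0 ± 1.53 CPM, SD, n = 3, log2 fold change -0.74, edgeR adjusted p = 0.00214) and Map2k6 (-0.96, adjusted p = 0.0109) activate p38, and Mapk14 (-0.63, adjusted p = 0.0121) is p38α itself. The other p38 genes were not called, with log2 fold changes of -0.14 for Mapk11, 0.21 for Mapk12 and -0.67 for Mapk13 (adjusted p = 0.645, 0.453 and 0.0611), and no p38 list was tested. The call of Map2k6 was lost without scrambled control 2 (adjusted p = 0.0539) and that of Mapk14 without IFNγR1KO 10 (0.0681) or IFNγR1KO 11 (0.0739). Mapk8, which encodes the Jun kinase JNK1, had a log2 fold change of 0.32 and an adjusted p of 0.303.

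All 16 regulators of Fos and Jun transcription or turnover were tested, and 1 was called, with a median of -0.16. The count was 3 without IFNγR1KO 12 and 2 with no low-count filter. Elk3, a ternary complex factor that represses serum response elements such as that of Fos, went from 62.1, 65.1 and 78.7 CPM to 38.8, 39.7 and 46.1 CPM (log2 fold change -0.72, SE 0.15, edgeR adjusted p = 0.00554).

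Immediate-early genes are induced beside Fos and Jun by growth factors and stress. Of 30 listed, 24 were tested, 5 were called higher and 2 lower, with a median of 0.11. Without scrambled control 2, 4 genes of the list were called in place of 7. Klf4 (log2 fold change 1.95, edgeR adjusted p = 0.00283), Klf6 (0.76, adjusted p = 0.00409) and Btg2 (1.15, adjusted p = 0.00808) were higher. Counts were low for Klf4, with 8, 19 and 15 in scrambled control and 32, 32 and 54 in IFNγR1KO. They were also low for Btg2, with 22, 24 and 29 in scrambled control and 41, 36 and 44 in IFNγR1KO. Nr4a2 (0.93, adjusted p = 0.0466) and Rhob (0.43, adjusted p = 0.0329), named after their values were seen, completed the 5. Ccn2 (-1.11, adjusted p = 0.00644), a matricellular protein gene with an antisense transcript under 23.2% of its exonic bases, and the nuclear receptor gene Nr4a1 (-0.58, adjusted p = 0.0226) were lower. The Nr4a1 call was lost in 4 of the 6 fits without a library, those without scrambled control 2 (adjusted p = 0.0875), scrambled control 3 (0.0522), IFNγR1KO 10 (0.116) or IFNγR1KO 11 (0.0879). Of the 17 tested genes that were not called, 3 that respond to the same stimuli as Fos were picked outside the naming rule. Their log2 fold changes were 0.07 for Ier2 (95% interval -0.28 to 0.42), 0.16 for Dusp1 (-0.29 to 0.60) and -0.03 for Egr1 (-0.82 to 0.76). Egr1 had only 9 to 22 counts a library. Estimates of the 17 uncalled genes ran from -0.89 for Sgk1 to 0.44 for Plk2 (edgeR adjusted p = 0.0609 and 0.231), so the 3 picked do not stand for all of them.

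Of 25 textbook AP-1 target genes, 14 were tested, 1 was called higher and 4 lower, with a median of -0.14, and 6 of the 25 were at 0 in every library. Spp1, the osteopontin gene, measured 155, 150 and 129 CPM in scrambled control and 64.4, 55.9 and 41.6 CPM in IFNγR1KO (log2 fold change -1.42, SE 0.17, edgeR adjusted p = 0.000218). Ccnd1, the cyclin D1 gene, went from 328 ± 54.6 to 167 ± 32.2 CPM (SD, n = 3; log2 fold change -0.97, edgeR adjusted p = 0.00288), with antisense exons under 23.4% of its own. Vegfa, the angiogenic factor gene, was higher (0.97, adjusted p = 0.00109). Ezr, which encodes the membrane linker ezrin (-0.59, adjusted p = 0.0276), and Thbs1, the thrombospondin gene named after its value was seen (-0.81, adjusted p = 0.0454), were lower. The Ezr call was lost without scrambled control 2 (adjusted p = 0.103), scrambled control 3 (0.0722), IFNγR1KO 10 (0.111) or IFNγR1KO 11 (0.132). Without scrambled control 2, IFNγR1KO 10 or IFNγR1KO 11, this list had 3 called genes instead of 5.

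All 11 genes of the NRF2 and small Maf list, which carry antioxidant response elements, were tested, and 2 were called higher and 4 lower, with a median of -0.36. Slc7a11, the cystine transporter gene, went from 28.0, 22.0 and 31.6 CPM to 83.0, 92.0 and 99.4 CPM (log2 fold change 1.75, SE 0.16, edgeR adjusted p = 2.59e-05). Hmox1, the heme oxygenase gene, was also higher (0.88, adjusted p = 0.00193). Slc7a11 and Hmox1 are known targets of ATF4 as well as of NRF2, and whether either factor had a part in these changes was not tested. Gsr (-0.97, adjusted p = 0.00334), Me1 (-0.66, adjusted p = 0.00627) and Txnrd1 (-0.70, adjusted p = 0.0115), which supply or use NADPH in redox defence, were lower, as was Gclm (-0.56, adjusted p = 0.0285), named after its value was seen. The Txnrd1 call was lost without IFNγR1KO 10 (adjusted p = 0.0668) or IFNγR1KO 11 (0.0833).

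**Figure D4:**
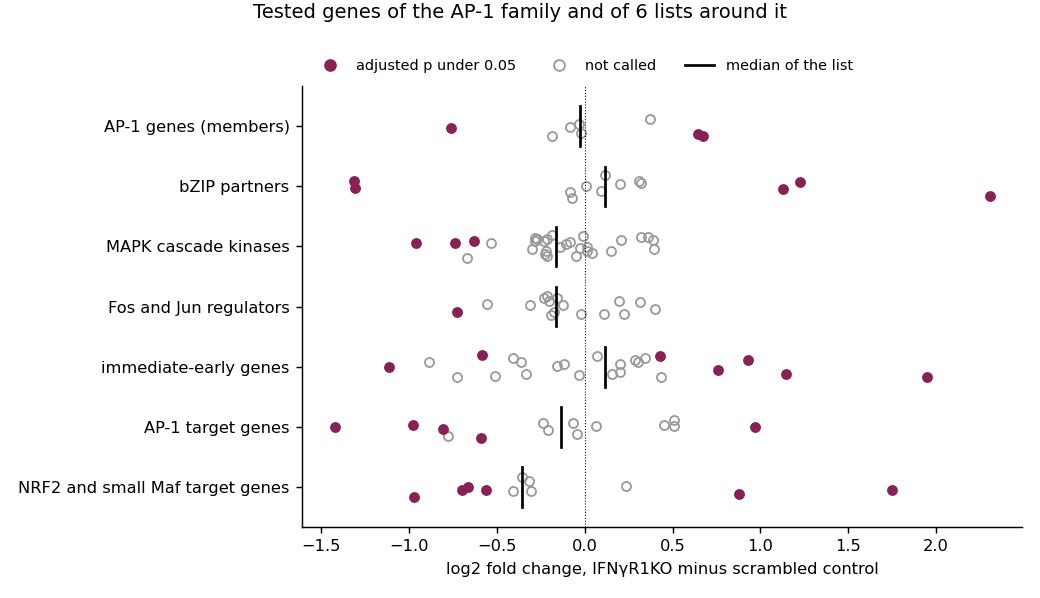
Each row plots the tested genes of the AP-1 family or of 1 of the 6 lists by log2 fold change (IFNγR1KO minus scrambled control), filled where the adjusted p was under 0.05, with a black bar at the median; vertical scatter within a row has no meaning. The widest spread is among the bZIP partners, from Batf and Batf3 at -1.31 to Atf3 at 2.30.

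Fos, Jdp2 and Batf are neighbours on chromosome 12, and this stretch was chosen for description after their values were seen. Jdp2 starts 122 kb past the end of Fos, and Batf starts 46.8 kb past the end of Jdp2. Within 300 kb on either side of the stretch 12 genes were tested, of which Jdp2 and Gm47863 were called higher and Batf lower. Tmed10, the nearest tested gene before Fos, had a log2 fold change of -0.20 (95% interval -0.49 to 0.08), and Erg28, the nearest tested gene past Batf, one of -0.47 (95% interval -0.79 to -0.15, edgeR adjusted p = 0.0506). Neighbours thus had estimates of opposite sign, and no test of the region as a whole was made.

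**Figure D5:**
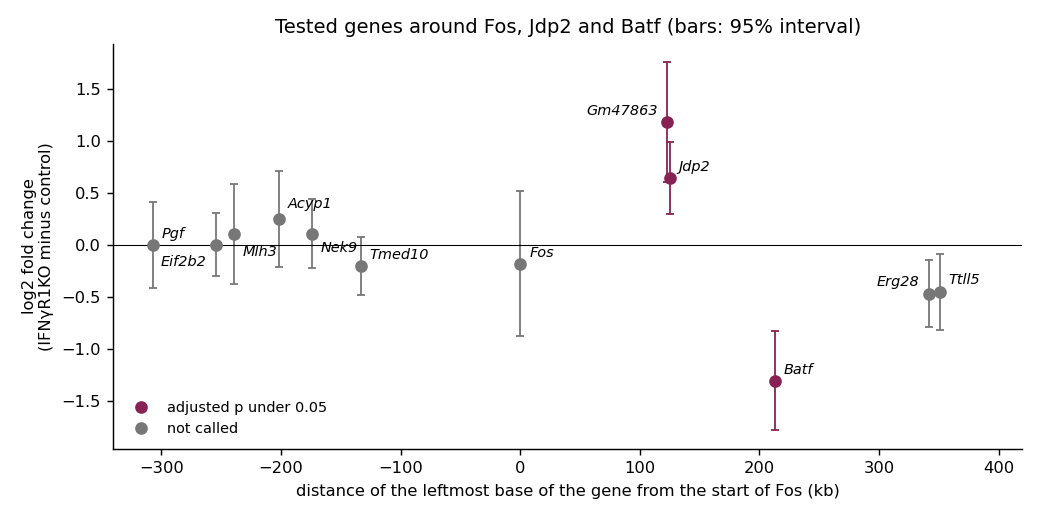
The log2 fold change of each tested gene (IFNγR1KO minus scrambled control) is plotted with its 95% interval against the distance in kb of its leftmost base from the start of Fos, in purple where the adjusted p was under 0.05. Gm47863 and Jdp2 lie above 0 at 1.18 and 0.64, and Batf lies below at -1.31.

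The genes whose levels followed those of the called members most closely over the 6 libraries were found by Pearson's r of log2 CPM among 11054 genes. For Jund they were Entpd2 (r = 0.995), Zfp598 (0.994) and Klf15 (0.990). For Jdp2 they were Mid1ip1 (0.999), Entpd2 (0.987) and Npepl1 (0.987), so Entpd2 was close to both. For Maff they were Gm14150 (0.990), Map2k5 (0.984) and Zadh2 (0.982). With 6 libraries in 2 groups that share their cells and depth, these values are a description of likeness.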

How the data were processed

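RNA of 3 scrambled control and 3 IFNγR1KO cultures of B16 cells was enriched for poly(A), sequenced as paired ends and, per the labels and the study's methods, aligned to GRCm38 with STAR 2.7.5a. The authors counted reads per gene with HTSeq 0.11.2 and deposited raw counts, 1 table a library, without normalization. The submitters' notes also name DESeq2 1.34.0. The annotation release and strand setting are not given in the sources used here. Of all reads, 53.0% to 54.1% were assigned to no single gene and stayed out of library sizes. Those that matched no counted feature were 46.9% to 47.7% of all reads.

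Identifiers were matched to GENCODE M21 (55154 of 55335). Counts were analysed in R 4.3.3 with edgeR 4.0.16: filterByExpr (minimum count 10, minimum total 15), TMM, the quasi-likelihood test and Benjamini-Hochberg adjustment over 13642 genes. Intervals are 95% and use the fit's degrees of freedom. RPKM used the union of exons. DESeq2 1.42.0, other scalings and filters, thinning and leaving out each library were alternatives. The script was tested on simulated data. Members and lists were chosen with earlier results of these data known. Genes named by rule were all members, Ifngr1 and the up to 3 most significant called genes of each list in each direction. For likeness, they were the 3 genes of mean CPM at least 5 nearest to called members. Other named genes, among them antisense transcripts, neighbours on chromosome 12 and uncalled genes of the lists, were chosen outside this rule. In the lists, 4 genes were matched through older symbols. Proteins were not analysed here.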

Additional observations from a re-analysis of the deposited data

How the results depend on the processing

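No paired analysis was possible because the groups share no replicate number. The call of Jund held in 13 of 13 alternatives, that of Jdp2 in 10 of 12 and that of Maff in 9 of 12, all losses coming from leaving out a library. The 13 for Jund include the joint count with Gm11175, which was chosen after the values were seen and was not run for Jdp2 or Maff. Between 1 and 3 of the AP-1 genes were called when a library was left out, with 1, Jund, remaining without IFNγR1KO 11. At an adjusted p under 0.01 there were 0. The number of AP-1 DEGs was 0 in 13 of 13 alternatives. Over all genes, 1028 to 2824 were called without 1 library, with the low values without scrambled control 2 (1087), IFNγR1KO 10 (1095) and IFNγR1KO 11 (1028). The highest value came without IFNγR1KO 12 (2824). Estimates near 0 changed sign: log2 fold changes without 1 library ran from -0.386 to 0.0648 for Fos, from -0.101 to 0.133 for Fosl2 and from -0.0567 to 0.0334 for Junb, above 0 without scrambled control 3 (Fos, Fosl2) or IFNγR1KO 11 (Fosl2, Junb). Fosl2 was 0.0169 with upper-quartile factors and 0.00495 after thinning, and Junb was 0.00685 with upper-quartile factors. The cause was not tested. The gain of the Jun genes in the Fos and Jun pool was 1.52 percentage points by RPKM, 0.858 to 1.88 without 1 library, and 3.12 by counts, which give long genes such as Fosl2 more weight. Ifngr1 was not called in any of 12 alternatives (log2 fold change -0.54 to -0.43). Of 31 single-gene results, 28 did not change sign, and 18 of 373 values lost their call. Low counts limit Fos, and the filter left out Fosb and Fosl1.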
